A study of Homo sapiens with 12 samples.

Results

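Regions inside genes that touch CpG islands are described here in HL-60 cells before and after differentiation with dimethyl sulfoxide (DMSO). A region was taken when the deposited tables put it at distance 0 from a CpG island, at distance 0 from a gene and more than 1000 bases from a gene's promoter. This chose 2252 of 327931 regions of 5-hydroxymethylcytosine (5hmC) and 644 of 65535 listed regions of 5-methylcytosine (5mC). The choice used positions only and no measured value, but the 5mC table itself was a list already selected for a difference between the states.

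HL-60, an established cell line from a promyelocytic leukemia, can be matured toward neutrophil-like cells. Differentiated cells had been grown with 1.5% DMSO (211 mM) for 7 days and were sorted as viable and positive for CD11b, the integrin subunit encoded by ITGAM. Undifferentiated cells were sorted as viable and negative for CD11b. Each state had 3 biological replicates, and the DNA of every replicate was shared between MeDIP-seq (an antibody against 5mC) and hMeDIP-seq (an antibody against 5hmC), which gave 12 libraries. The comparison is between sorted fractions of 1 cell line, and no library of input DNA or of a control antibody was analysed here. No RNA was measured in these libraries, so the state of the cells rests on the CD11b sort. Antibody capture measures how much marked DNA was pulled down, and not the percentage of cytosines that carry the mark. CpG density and the number of copies of a locus also set how much is captured.

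CpG islands are short stretches of DNA rich in the dinucleotide CG. Those at promoters are mostly free of 5mC, whereas islands inside genes are more often methylated, and some of them act as alternative promoters. The DNA methyltransferases DNMT1, DNMT3A and DNMT3B write 5mC, and the TET dioxygenases oxidise it to 5hmC, a mark usually found in the bodies of genes.

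The 5hmC libraries held 13010267 to 32495733 counts in the differentiated and 15688562 to 33693880 counts in the undifferentiated state. Gene-body islands took 0.971% to 1.05% of these in differentiated and 0.972% to 1% in undifferentiated libraries, with a median of 28 to 90 counts per region in differentiated and 35 to 82 in undifferentiated libraries. The listed 5mC regions summed to 7940755 to 9670011 counts in differentiated and 6076100 to 6851769 in undifferentiated libraries, and gene-body islands took 1.85% to 1.89% and 1.93% to 1.94% of them. The 5mC sums are not library depths, since the list was selected.

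Regions at gene-body islands were 1000 bases wide in the median for 5hmC (200 to 12400) and 2000 bases for 5mC (200 to 60800). Regions therefore usually extended past the island itself: a median of 23.8% of a 5hmC region and 16.8% of a 5mC region lay within an island, and the islands were short (median lengths of 436 and 388 bases). In 466 of the 5hmC and 57 of the 5mC regions at least 50% of the bases were island. The 5hmC regions touched 2295 islands, of which 27 were also touched by a region at a promoter, and the 5mC regions touched 718, none of them shared in this way. The deposited promoter distance was found to run upstream only, so gene starts were placed from it. Only 1 of the 2252 5hmC regions and 0 of the 644 5mC regions came within 1000 bases of a placed start, and the median distance was 14789.5 bases for 5hmC and 25732.5 bases for 5mC. Exons and introns were not told apart. At the edge of the rule, regions just inside it in the 5hmC table lay in FLI1 (promoter distance 1012, log2 fold change 0.39), CCDC9 (1060, 0.23) and PRRT3 (1089, -0.31). Those just outside it lay in DGKZ (953, 0.64), MYH6 (926, 0.43) and ABCA7 (923, 0.10). In the 5mC table the regions just inside lay in ARHGEF26 (1202, 0.57), LRBA (1278, 0.66) and TMEM187 (1374, 0.79), and those just outside in NSMCE2 (964, -0.57), NFATC1 (927, 0.37) and HOXB7 (667, 0.27).

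The 5hmC members lay in 1615 genes, of which 1199 held 1 such region, 246 held 2 and 170 held 3 or more. The 5mC members lay in 548 genes. Chromosome 19 held 480 of the 5hmC members, or 21.3%, although it held 4.03% of all 5hmC regions. It also held 78 of the 5mC members, or 12.1%, against 3.47% of all listed 5mC regions.

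With TMM scaling most gene-body islands had more 5hmC in differentiated cells, and their median change stood above that of all regions. Of 2252 regions, all of which passed the filter on low counts, 832 (36.9%) rose and 67 (2.98%) fell in edgeR's quasi-likelihood test (adjusted p under 0.05). Across all 327901 regions tested, 27% rose and 23.3% fell. The median log2 fold change, differentiated over undifferentiated, was 0.34 in gene-body islands (quartiles 0.15 and 0.55) and -0.04 over all regions, and it was positive in 1921 of the 2252. Differentiated and undifferentiated libraries were fully separated in 946 members (42%), which is below the 52.2% of all regions tested. The density of 5hmC, in CPM (read counts scaled to a common library total, with TMM correction) per kb, was 2.88, 2.51 and 2.92 in differentiated libraries, against 2.35, 2.29 and 2.23 in undifferentiated libraries. With TMM scaling every differentiated library thus lay above every undifferentiated one. Medians over members averaged 2.77 ± 0.226 in differentiated and 2.29 ± 0.06 in undifferentiated libraries (SD, n = 3 each). More cells carrying the mark and more of the mark per cell cannot be told apart here.

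Gene bodies outside islands were near balance. Of 149989 such regions 24% rose and 25.7% fell, with a median of -0.11. Islands at promoters (2058 regions, 42.9% up, 4.71% down, median 0.39) and islands outside genes (1365 regions, 49.6% up, 3.66% down, median 0.44) also had many more rises than falls with this scaling.

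These counts depend on how libraries were scaled. Without the TMM correction of library totals 298 members rose and 160 fell, and with TMM factors taken from the regions with most counts 178 rose and 213 fell, so that the balance of calls turned. The median of members and of all regions moved together, to 0.13 and -0.25 without TMM and to 0.06 and -0.32 with those factors. A change of scaling shifts all regions by nearly the same amount, so the gap between these medians could not test the result. TMM factors were 0.8585 to 0.9828 in differentiated and 1.056 to 1.098 in undifferentiated 5hmC libraries, which raises the CPM of the former. Taken out, they leave the density of differentiated replicate 2 below that of every undifferentiated library. Separation of the states in single regions was judged with TMM scaling only, here and below. DESeq2 called 296 members up and 19 down. Leaving out undifferentiated replicate 1 gave 497 up and 34 down, leaving out differentiated replicate 3 gave 504 up, and leaving out differentiated replicate 1 gave 551 up.

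**Figure D1:**
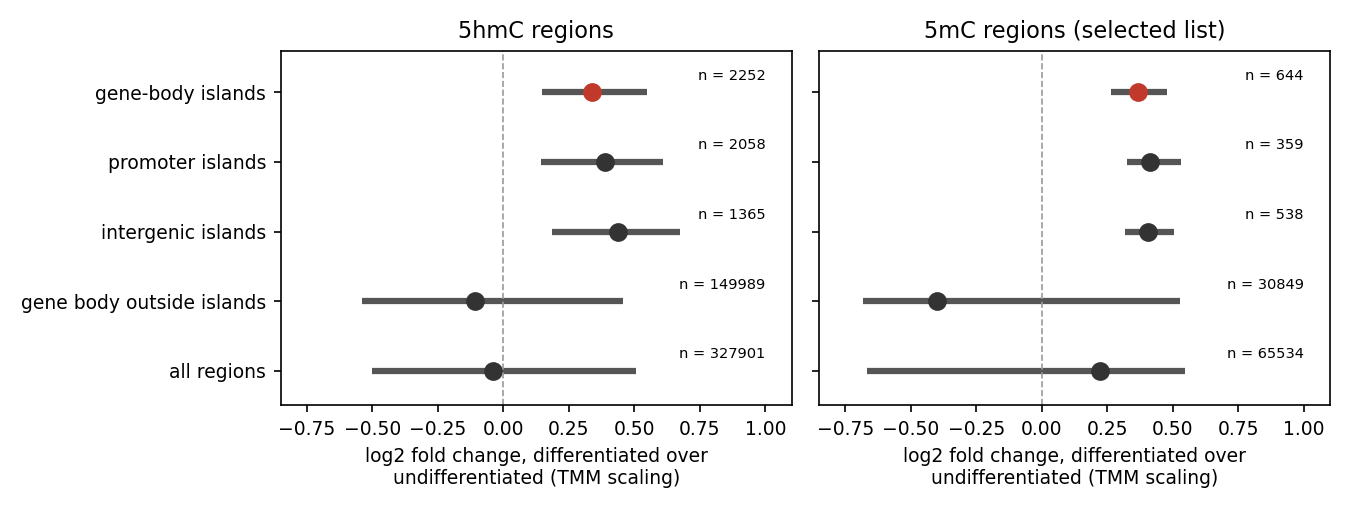
Median (point) and quartiles (bar) of the log2 fold change with TMM scaling, differentiated over undifferentiated, for each class of region, 5hmC left and 5mC right. Gene-body islands have medians of 0.34 for 5hmC and 0.37 for 5mC, while gene bodies outside islands have medians of -0.11 and -0.40.

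A ratio within a library needs no scaling between libraries. The log2 ratio of counts in gene-body islands to counts in gene bodies outside islands was -5.00, -5.05 and -5.04 for 5hmC in differentiated libraries, against -5.24, -5.27 and -5.25 in undifferentiated libraries. All differentiated libraries were above all undifferentiated ones, by 0.22 on average (exact permutation test, two-sided, p = 0.1, the smallest that 3 against 3 allows; 0.12 after Benjamini-Hochberg adjustment over 6 ratios). For 5mC the same ratio was -3.66, -3.61 and -3.60 in differentiated and -3.80, -3.81 and -3.82 in undifferentiated libraries, a difference of 0.18 with no overlap (exact permutation p = 0.1, adjusted 0.12).

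Against promoter islands the summed counts of gene-body islands also shifted upward, by 0.14 for 5hmC and 0.20 for 5mC on the log2 scale (exact permutation p = 0.1 for each, adjusted 0.12). Those differences rested on 1 very large region, singled out after its values were seen. That region, in NSMCE2 and TRIB1 (chr8:126224401-126442800), held 13.5% of all promoter-island 5hmC counts in differentiated and 20.6% in undifferentiated libraries. The 5mC region there held 20.7% in differentiated and 31.1% in undifferentiated libraries. Without it the differences were 0.02 for 5hmC (exact permutation p = 0.5) and -0.01 for 5mC (exact permutation p = 0.3), and with medians over regions in place of sums they were -0.004 and -0.06. Against all other regions the 5hmC ratio overlapped between the states (difference 0.06, exact permutation p = 0.4). The 5mC ratio was lower by 0.05 in differentiated libraries (difference -0.049, exact permutation p = 0.1), but it turned to 0.018 without the top 1% of members and to 0.30 with medians.

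**Figure D2:**
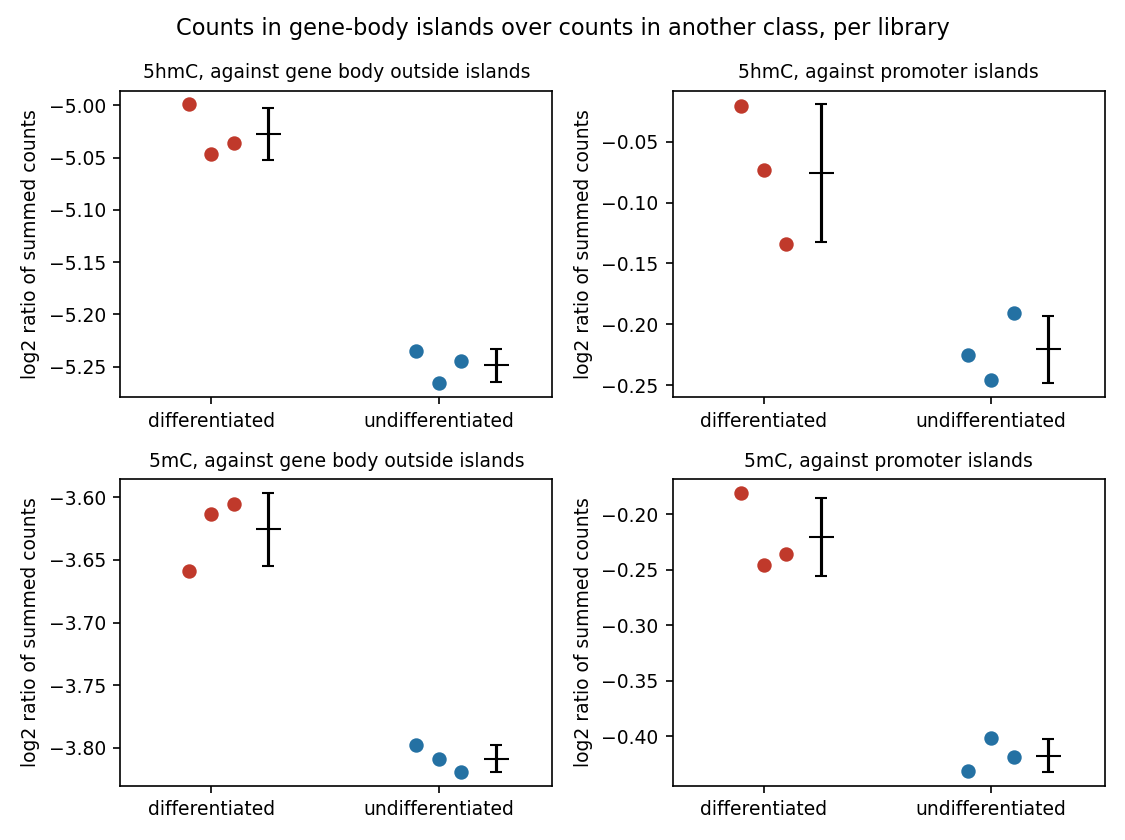
Log2 ratio of summed counts in gene-body islands to summed counts in gene bodies outside islands (left) or promoter islands (right), one point per library, with the mean and SD of 3 libraries beside them. Differentiated libraries lie above undifferentiated ones in all panels, but the differences against promoter islands fell to 0.02 for 5hmC and -0.01 for 5mC without the NSMCE2 region.

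With TMM scaling, the more of a region was island, the more often its 5hmC rose. Among 438 regions with under 10% of their bases in an island, 26% rose and 5.71% fell, with a median log2 fold change of 0.25. Among 216 regions with 75% or more, 49.5% rose and 0.463% fell, with a median of 0.51. The bins between them had medians of 0.30 (10% to 25%), 0.38 (25% to 50%) and 0.42 (50% to 75%). Regions also differed in width across these bins, from a median of 1200 bases in the lowest to 600 in the highest, and the part of width in this order was not tested. For 5mC the share that rose was 69.9% in the lowest bin (163 regions) and 65% in the highest (20 regions), while the share that fell was 14.7% and 0%. Its median log2 fold changes from the lowest bin to the highest were 0.30, 0.34, 0.44, 0.46 and 0.46. The median widths of these 5mC regions were 3600, 2000, 1400, 1000 and 1000 bases. The part of width, and of the selection of the list, in this order was not tested. Distance to the nearest placed start gave no such order for 5hmC: 37.2% rose at 1000 to 2000 bases, 37.3% at 2000 to 5000, 34% at 5000 to 20000 and 39.6% beyond 20000. For 5mC the share that was higher was 55.6%, 55.7%, 61.9% and 76.5% in these bins (36, 70, 189 and 349 regions). The share that was lower was 8.33%, 21.4%, 15.9% and 4.87%. Median log2 fold changes of 5mC did not follow the order of distance, at 0.45, 0.37, 0.32 and 0.39. Median widths were 1000, 1600, 2200 and 2200 bases, and the part of width in these shares was not tested.

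**Figure D3:**
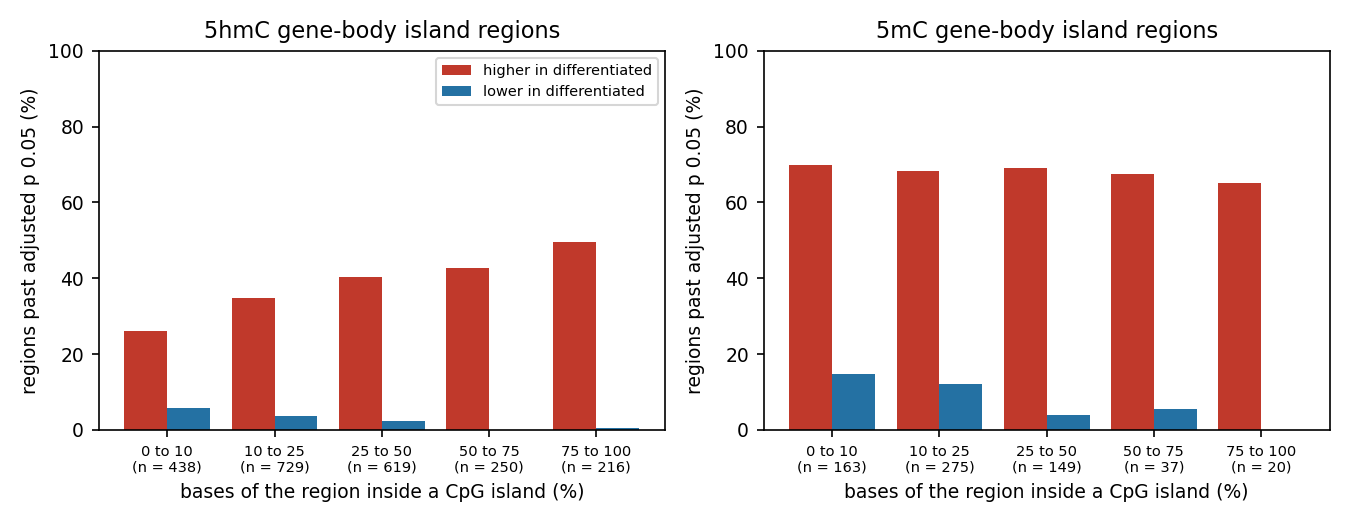
Percentage of gene-body island regions that were higher (red) or lower (blue) in differentiated cells, by the percentage of the region's bases inside a CpG island. For 5hmC the share that rose was 26% in the lowest bin and 49.5% in the highest.

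Among members with a mean CPM at or above the median, with separate states and outside chromosome 8, and with 1 region taken per gene, the largest rises of 5hmC included regions in DIP2C, ASB18 (an ankyrin repeat protein), CELF4 (an RNA-binding splicing regulator of neurons), TERT (the catalytic subunit of telomerase), CUX2 (a homeobox factor of cortical neurons) and PTPRN2 (a phosphatase-like protein of secretory granules). In DIP2C (chr10:367401-367800, 82.8% island) 5hmC was 3.95, 3.22 and 5.42 CPM in differentiated libraries, against 2.14, 1.83 and 1.87 CPM in undifferentiated libraries. The states did not overlap, and the log2 fold change was 1.16 (SE 0.176, adjusted p = 1.69e-06). It was the largest rise within those limits.

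The island in TERT (chr5:1289201-1291800) made up 97.1% of its region. Its 5hmC was 11.2, 10.8 and 11.1 CPM in differentiated libraries, against 6.43, 5.79 and 4.71 CPM in undifferentiated libraries. Differentiated libraries were tightly grouped and all higher (log2 fold change 0.94, SE 0.148, adjusted p = 3.05e-06). The CELF4 region (chr18:35104001-35105600) had 4.68, 3.13 and 4.20 CPM in differentiated libraries, against 2.17, 1.88 and 2.11 CPM in undifferentiated libraries. The log2 fold change was 0.99 there (adjusted p = 1.68e-05), 1.01 in ASB18 (chr2:237146401-237147400, adjusted p = 1.19e-05) and 0.92 in CUX2 (chr12:111747401-111748400, adjusted p = 5.61e-05). The rule also named a region of DUX4-like copies (log2 fold change 0.97) and one in NBPF8 (0.90). Both lie in families of near-identical sequence, so where their reads came from is uncertain.

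Under the same limits (mean CPM at or above the median of members, states separate, chromosome 8 left out, 1 region per gene), the falls of 5hmC were led by TJP3, which encodes the tight junction protein ZO-3. Its region (chr19:3748001-3749200) had 2.42, 2.60 and 1.94 CPM in differentiated libraries, against 4.45, 4.15 and 4.89 CPM in undifferentiated libraries. The states were well apart (log2 fold change -1.0, SE 0.17, adjusted p = 1.05e-05). UHRF1, which guides DNMT1 to newly copied DNA, had 4.57, 3.76 and 4.13 CPM in differentiated libraries, against 7.0, 6.99 and 8.21 CPM in undifferentiated libraries (chr19:4916201-4919600, log2 fold change -0.81, adjusted p = 3.96e-05). All differentiated libraries were lower. ZBTB4, a zinc finger protein that binds methylated CpG, had a log2 fold change of -0.74 (chr17:7367601-7369200, adjusted p = 0.00139), and its libraries also did not overlap. MUM1, HS3ST6 (a heparan sulfate sulfotransferase), GRIN3B (an NMDA receptor subunit), ATP6V1B1 (a proton pump subunit) and UNKL fell by 0.87, 0.81, 0.71, 0.70 and 0.63 on the log2 scale. Little of most of these regions was island: 7.25% in TJP3, 6.59% in UHRF1, 5.29% in HS3ST6 and 0.8% in GRIN3B, although it was 46.1% in MUM1. The calls of the rises and falls named here held under every alternative run.

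**Figure D4:**
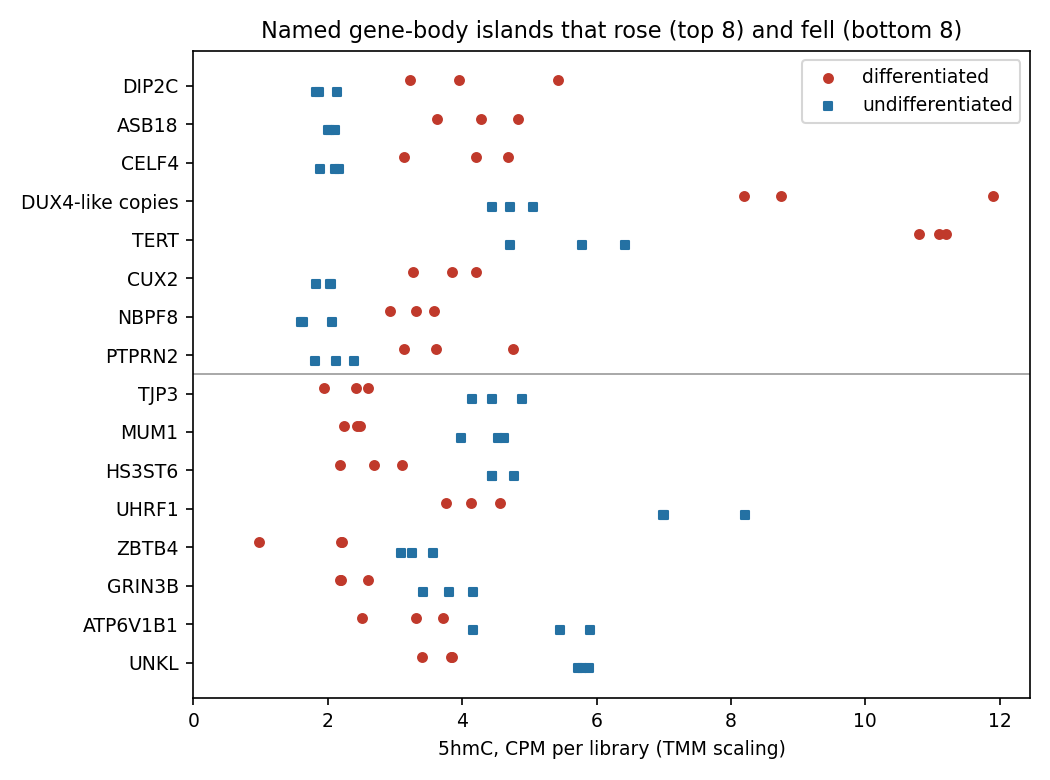
5hmC in CPM (scaled library totals) in each of 3 differentiated (red circles) and 3 undifferentiated (blue squares) libraries, for the named islands that rose (upper part) and fell (lower part). The states are separate in each of them, which the naming rule required, and TERT has the widest gap, with 10.8 to 11.2 CPM in differentiated and 4.71 to 6.43 CPM in undifferentiated libraries.

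A gene can gain 5hmC over its whole length, so each region was also set against the average of its own gene. This comparison could be made for 2058 members in 1370 genes. In it 296 members (14.4%) rose and 72 (3.5%) fell relative to their gene, while of all 150798 regions so tested 14.6% rose and 19.9% fell. The share that rose was therefore at the background, and the share that fell was below it. The median difference was 0.14 for members, -0.06 for all regions and 0.23 for 1226 promoter islands. Without undifferentiated replicate 1 the counts were 158 up and 33 down, and without differentiated replicate 3 there were 147 up.

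The members above their gene with the smallest adjusted p were in CARM1 (an arginine methyltransferase of histones), PIK3R2 (a regulatory subunit of PI3-kinase), NID1 (a basement membrane protein) and FAM19A1 (a secreted chemokine-like protein). In CARM1 (chr19:11031401-11032800) 5hmC was 3.10, 2.51 and 3.51 CPM in differentiated libraries, against 1.84, 2.03 and 2.47 CPM in undifferentiated libraries. With TMM scaling the states did not overlap, though the gap was narrow, and they overlap when the TMM factors are taken out. The region gained 1.00 on the log2 scale over its gene (adjusted p = 1.36e-05). The gain was 0.96 in PIK3R2 (chr19:18279201-18281200), 1.11 in NID1 (chr1:236156601-236157000) and 1.17 in FAM19A1 (chr3:68056401-68057000). Those below their gene with the smallest adjusted p were in SERPINB9, an inhibitor of granzyme B (-1.18), VIPR2, a receptor of vasoactive intestinal peptide (-1.36), SDCCAG3 (-1.12) and NBPF8 (-0.91). The VIPR2 region held few counts, with 15, 6 and 17 in differentiated and 53, 18 and 28 in undifferentiated libraries. Only 5.5% of it was island. NBPF8 lies in a family of near-identical sequence, and a different region of it was among the rises above. The direct change of CARM1 (log2 fold change 0.62) lost its call under DESeq2, under both other scalings and without undifferentiated replicate 1 or differentiated replicate 3. That of VIPR2 (-1.08) lost it without differentiated replicate 3.

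In the 5mC list gene-body islands were also mostly higher with TMM scaling. Of its 644 members, 443 (68.8%) were higher and 65 (10.1%) lower in differentiated cells (edgeR, adjusted p under 0.05), whereas over the whole list 35.7% were higher and 37.1% lower. Because the list was selected on this contrast, these shares describe the list and not the genome. The median log2 fold change was 0.37 in members, 0.22 over the list and -0.40 in gene bodies outside islands. Quartiles were 0.265 and 0.479 in members and -0.666 and 0.549 over the list, so the upper quartile of members lay below that of the list. Full separation of the states was seen in 566 members (87.9%), near the 86.1% of the list. Density was 8.95, 9.21 and 9.25 CPM per kb in differentiated libraries, against 7.47, 7.73 and 7.48 in undifferentiated libraries. With TMM scaling each differentiated library was above each undifferentiated one.

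The balance of 5mC calls turned with the scaling. Without TMM 28 members were higher and 89 lower, with factors from the regions with most counts 15 were higher and 89 lower, and DESeq2 called 68 and 5. The median of members and of the list was 0.11 and -0.04 without TMM, and 0.08 and -0.07 with the other scaling. The gap between these medians is nearly fixed under a change of scaling, so it could not test the result. TMM factors were 0.9046 to 0.9248 in differentiated and 1.083 to 1.099 in undifferentiated 5mC libraries. Taken out, they leave densities of members that overlap between the states. Leaving out any 1 library gave 273 to 316 higher and 39 to 43 lower, the fewest higher without differentiated replicate 2 (273), differentiated replicate 3 (280), undifferentiated replicate 3 (289) or undifferentiated replicate 2 (290).

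Within the limits used for 5hmC, the largest 5mC rises were in MYT1L (a transcription factor of neurons), LOC285441, TMEM132D, PTPRN2, RYR2 (a calcium release channel), SLC6A3 (the dopamine transporter), PXDN (peroxidasin, a matrix peroxidase) and LINC00111. In MYT1L (chr2:1941001-1941800, 61.5% island) 5mC was 26.5, 26.4 and 25.6 CPM in differentiated libraries, against 15, 16.1 and 16.2 CPM in undifferentiated libraries. The states were far apart (log2 fold change 0.73, SE 0.104, adjusted p = 7.63e-08). PXDN (chr2:1651601-1654600, 46.9% island) had 37.4, 41.2 and 41.7 CPM in differentiated libraries, against 24.5, 29.0 and 29.3 CPM in undifferentiated libraries, again with no overlap (log2 fold change 0.54, adjusted p = 3.12e-06). The calls of PTPRN2 and LINC00111 were lost with factors from the regions with most counts, and that of SLC6A3 also without TMM.

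Within the same limits the falls of 5mC were led by ATAD3C, UNKL, SSU72 (a phosphatase of the RNA polymerase II tail), RFX2 (a transcription factor of ciliated cells), LOC729737, SOGA1, ATAD3A (a mitochondrial membrane ATPase) and TNRC18. In UNKL (chr16:1418201-1420400) 5mC was 12.1, 16.9 and 13.6 CPM in differentiated libraries, against 20.1, 22.2 and 21.3 CPM in undifferentiated libraries. All differentiated libraries were lower (log2 fold change -0.59, SE 0.114, adjusted p = 0.000129), and its overlapping 5hmC region was among the falls above. ATAD3A (chr1:1462801-1467200) had high 5mC, with 389, 459 and 451 CPM in differentiated libraries, against 702, 537 and 508 CPM in undifferentiated libraries. The states did not overlap, but undifferentiated replicate 1 stood well above the other undifferentiated libraries, as it did in ATAD3C (108 CPM, against 93.6 and 83.7) and SSU72 (106 CPM, against 79.9 and 71.7). ATAD3A and ATAD3C are close copies of each other, so their reads may be shared. The calls of SSU72, RFX2, SOGA1, ATAD3A and TNRC18 were lost under DESeq2.

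On chromosome 19, 134 of the 480 5hmC members rose and 18 fell (27.9% and 3.75%), with a median log2 fold change of 0.25, while 17.2% of all 5hmC regions of the chromosome rose. Of its 78 5mC members, 32 were higher and 29 lower (41% and 37.2%), with a median of 0.22, while 28.8% of all listed 5mC regions of the chromosome were higher. Over the list of all chromosomes 37.1% were lower, as were 10.1% of all 5mC members. The median density of these 78 members was 7.39, 7.02 and 7.27 CPM per kb in differentiated libraries, against 7.83, 7.92 and 7.79 in undifferentiated libraries. With TMM scaling each differentiated library was thus below each undifferentiated one there, unlike over all 5mC members. Chromosome 19 held 29 of the 65 gene-body islands with lower 5mC. Chromosome 16 held 10 more, beside 15 that were higher.

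Where a 5hmC and a 5mC gene-body island overlapped, the marks mostly had the same sign with TMM scaling. There were 313 such pairs, with 13.9% of the 5hmC members and 45.3% of the 5mC members. In 261 pairs both log2 fold changes were positive, in 33 both were negative, in 10 only 5hmC was positive and in 9 only 5mC was. Both marks were called higher in 121 pairs and lower in 8, and 2 pairs were called in opposite directions. Pairs were counted with TMM scaling only. Of all 5mC members 28 were called higher without TMM and 15 with factors from the regions with most counts, so these pair counts depend on the scaling. Overlapping regions outside gene-body islands were not paired, so no background share can be set beside them. Across the 313 pairs the log2 fold changes had a Pearson r of 0.58 and a Spearman rho of 0.45, given as a description, since both marks were taken from the same DNA preparations and the 5mC list was selected.

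In OCA2, which encodes a melanosome transporter, the island made up 37.6% of the 5hmC region (chr15:28015601-28016800). Its 5hmC was 12.9, 14.7 and 10.8 CPM in differentiated libraries, against 7.05, 5.74 and 7.85 CPM in undifferentiated libraries (log2 fold change 0.88, adjusted p = 1.67e-05). Its 5mC (chr15:28015201-28016800) was 9.58, 12.5 and 10.2 CPM in differentiated libraries, against 6.06, 8.71 and 7.79 CPM in undifferentiated libraries (log2 fold change 0.51, adjusted p = 0.0169). Neither mark overlapped between the states. SSTR1 (a somatostatin receptor) and MAD1L1 (a spindle checkpoint protein) had log2 fold changes of 1.33 and 1.32 in 5hmC and of 0.53 and 0.34 in 5mC. The SSTR1 5mC libraries overlapped between the states, with 9.01, 9.62 and 7.2 CPM in differentiated and 5.66, 4.21 and 7.93 CPM in undifferentiated libraries. TJP3 and UHRF1 were lower in both marks, with -0.33 and -0.25 in 5mC. The 5mC calls of OCA2, SSTR1, MAD1L1, TJP3 and UHRF1 were lost under DESeq2 and without at least 1 of the libraries, and those of OCA2, SSTR1 and MAD1L1 also under both other scalings.

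The pairs called in opposite directions were in GALNS, a lysosomal sulfatase, and LOC729737. In GALNS (chr16:88897601-88898400) 5hmC was 1.41, 1.70 and 1.94 CPM in differentiated libraries, against 0.922, 0.723 and 0.724 CPM in undifferentiated libraries (log2 fold change 1.07, adjusted p = 0.000755). The 5mC region around it (chr16:88897401-88900000) had 8.22, 9.76 and 6.29 CPM in differentiated libraries, against 10.8, 10.4 and 12.1 CPM in undifferentiated libraries (log2 fold change -0.47, adjusted p = 0.0245). Here all differentiated libraries were higher in 5hmC and lower in 5mC. The 5mC region was wider than the 5hmC region, and its call was lost under DESeq2 and without undifferentiated or differentiated replicate 3. LOC729737 had log2 fold changes of 0.60 in 5hmC and -0.46 in 5mC, in regions that overlap only in part. Its sequence, near the end of chromosome 1, has close copies elsewhere, so its reads are uncertain, and its 5hmC call was lost with factors from the regions with most counts.

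**Figure D5:**
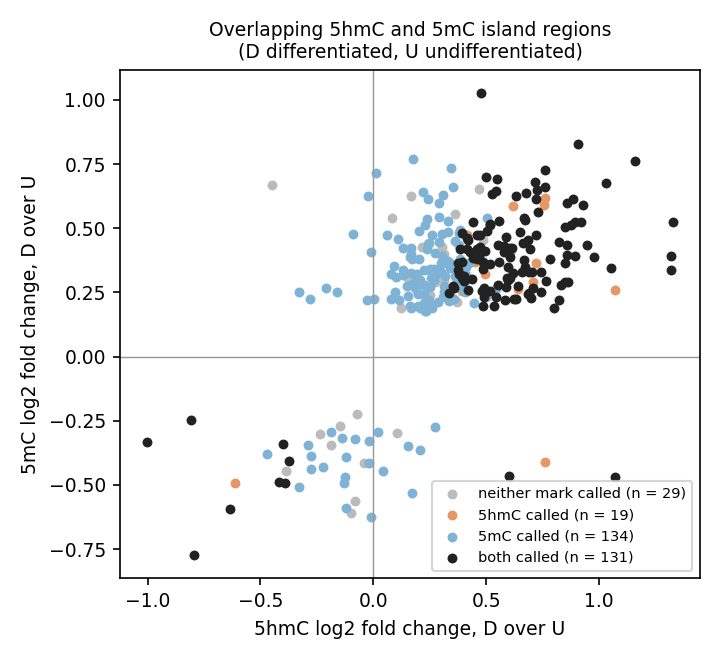
Log2 fold change with TMM scaling, differentiated over undifferentiated, of 5hmC (x axis) and 5mC (y axis) for 313 pairs of overlapping gene-body island regions. Points are coloured by which marks were called. Most pairs lie at upper right (261 positive in both), and the gap around 0 on the y axis comes with a 5mC list that was selected for a difference.

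A few genes held many of these islands. NFATC1, a transcription factor of activated T cells, held 24 in 5hmC, of which 10 rose and 0 fell (median log2 fold change 0.40), and its 4 in 5mC were all higher. Its 20 other 5hmC body regions included 7 that rose and 1 that fell, with a median of 0.36, and its 1 other 5mC body region was higher. PTPRN2 held 18 in 5hmC, of which 13 rose, and 26 in 5mC, of which 22 were higher; none was lower in either mark. The 153 other 5hmC regions of its body included 74 that rose and 6 that fell, so the rest of the gene moved in the same direction. In 5mC its 74 other body regions included 62 that were higher and 3 that were lower. MAD1L1 held 12, of which 7 rose, with a median of 0.43, against 0.26 in 84 other regions of its body, of which 21 rose and 9 fell. RPTOR, a subunit of the mTORC1 kinase complex, held 11, of which 4 rose (median 0.41, against 0.31 outside islands). The other 74 regions of its body included 25 that rose and 8 that fell. ERICH1-AS1, an antisense RNA gene, held 10, of which 8 rose (median 0.66, against 0.53 outside islands), and all its 8 in 5mC were higher. Elsewhere in its body 35 of 56 regions rose in 5hmC and 3 fell, and 24 of 28 were higher in 5mC. Over all gene-body islands 36.9% rose in 5hmC and 68.8% were higher in 5mC, beside 27% of all 5hmC regions and 35.7% of the 5mC list. Regions of 1 gene share their locus and are not replicates of each other.

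Developmental transcription factors, many of whose genes carry long islands, held 57 of the 5hmC members. Of these 32 rose and 2 fell, with a median log2 fold change of 0.54 and a range from -1.585 to 1.251. Over all gene-body islands 36.9% rose and the median was 0.34, and over all regions 27% rose and the median was -0.04. In TFAP2B, which encodes the factor AP-2 beta, 5hmC at chr6:50790801-50791400 was 2.59, 2.69 and 2.88 CPM in differentiated libraries, against 1.06, 1.25 and 1.21 CPM in undifferentiated libraries. The states were well apart (log2 fold change 1.25, adjusted p = 8.49e-06). LHX2, a LIM homeobox factor, had a log2 fold change of 1.23 (adjusted p = 0.0002). Among 10 such regions in 5mC, 6 were higher, beside 68.8% of all 5mC members and 35.7% of all listed 5mC regions. HOXA3 (0.53), BARX1 (0.93) and SHOX2 (0.34) were those named. Their calls were lost under DESeq2 and under both other scalings.

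Of 20 members in genes of neutrophils and myeloid cells, 4 rose in 5hmC and 0 fell, with a median of 0.24. That share is below the 36.9% of all gene-body islands and the 27% of all regions that rose. The region in ITGAM, the gene of the sorting marker CD11b, was among them (chr16:31341201-31342600). It had 9.30, 8.42 and 8.39 CPM in differentiated libraries, against 5.81, 5.45 and 4.95 CPM in undifferentiated libraries, with no overlap (log2 fold change 0.67, adjusted p = 0.000263), and 10.6% of it was island. RUNX1, a master regulator of blood formation, had a log2 fold change of 0.89 (adjusted p = 0.00497), and ALOX5, which makes leukotrienes, 0.56 (adjusted p = 0.00554). The RUNX1 call was lost with factors from the regions with most counts, and that of ALOX5 there and also without TMM, under DESeq2 and without undifferentiated replicate 1. In 5mC this gene list had 4 members, of which 2 were higher and 1 lower. Of all 5mC members 68.8% were higher and 10.1% lower, and of all listed 5mC regions 35.7% and 37.1%. RXRA (a retinoid receptor, log2 fold change 0.38) and SPI1 (the myeloid factor PU.1, 0.24) were higher and CBFA2T3 (a transcriptional corepressor, -0.40) lower. All 3 calls were lost under DESeq2, and SPI1 turned to -0.01 without TMM and to -0.05 with factors from the regions with most counts.

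Of 17 members in genes of lymphoid, erythroid and megakaryocyte cells, 6 rose in 5hmC and 1 fell (median 0.38), near the 36.9% that rose among all gene-body islands and above the 27% among all regions. They included TCF3 (0.82), GATA3 (0.92) and PAX5 (0.66), transcription factors of B and T cells, although the TCF3 libraries overlapped between the states, with 5.13, 2.86 and 4.88 CPM in differentiated and 2.90, 2.51 and 1.93 CPM in undifferentiated libraries.

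Ion channel genes held 76 members, of which 37 rose in 5hmC and 1 fell, with a median of 0.42, beside 36.9% rising among all gene-body islands and 27% among all regions. In CACNA2D4, an auxiliary subunit of calcium channels (chr12:2016801-2018400, 64.2% island), 5hmC was 5.86, 5.55 and 8.52 CPM in differentiated libraries, against 4.21, 3.71 and 3.32 CPM in undifferentiated libraries (log2 fold change 0.86, adjusted p = 2.78e-05). All differentiated libraries were higher there. The calcium channel gene CACNA1I had a log2 fold change of 0.85. In 5mC 11 of 16 were higher and 2 lower, the same share higher as the 68.8% of all 5mC members. Of all listed 5mC regions 35.7% were higher. GABRA5, a GABA-A receptor subunit, was at 58.9, 63.7 and 62.3 CPM in differentiated libraries, against 44.0, 42.5 and 42.8 CPM in undifferentiated libraries (log2 fold change 0.51, adjusted p = 2.45e-07), and the states did not overlap.

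Among cadherins and protocadherins 14 of 39 members rose in 5hmC and 1 fell (median 0.39), near the 36.9% that rose among all gene-body islands and above the 27% among all regions; among them were CELSR3 (0.60), a region shared by the protocadherin gamma genes (0.60) and DCHS2 (0.72). The DCHS2 libraries overlapped between the states, and all 3 calls were lost with factors from the regions with most counts. Among collagens and other matrix genes 17 of 31 rose and 0 fell (median 0.41; 36.9% of all gene-body islands and 27% of all regions rose), with MEGF6 at 26.7, 27.8 and 24.0 CPM in differentiated libraries, against 18.2, 14.8 and 16.2 CPM in undifferentiated libraries (log2 fold change 0.66, adjusted p = 0.000955). The states did not overlap in MEGF6. In 5mC, 4 of 7 cadherin members were higher, with the smallest adjusted p in CDH4 (R-cadherin, 0.51, adjusted p = 6.1e-08). Of 13 matrix members 6 were higher and 2 lower, with THBS2 (thrombospondin 2) at 0.41, a call lost under both other scalings. Of all 5mC members 68.8% were higher and 10.1% lower, beside 35.7% and 37.1% of all listed 5mC regions.

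Of 16 members in imprinted genes, which are expressed from 1 parental copy, 9 rose in 5hmC and 0 fell (median 0.49), beside 36.9% rising among all gene-body islands and 27% among all regions. DLGAP2, which encodes a postsynaptic scaffold protein, held 3 that were named, with log2 fold changes of 0.69, 0.86 and 0.66. At chr8:1591001-1592800 (71.2% island) it had 6.48, 7.34 and 6.98 CPM in differentiated libraries, against 4.15, 4.29 and 4.47 CPM in undifferentiated libraries. The states did not overlap (adjusted p = 0.000221). In 5mC 4 of 5 were higher, beside 68.8% of all 5mC members and 35.7% of all listed 5mC regions. Among the 4 was ATP10A (0.47), whose call was lost under DESeq2 and both other scalings. The antibody reads do not separate the parental copies.

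Chromatin and DNA methylation genes held 70 members, of which 24 rose in 5hmC and 3 fell (median 0.34, as over all gene-body islands), near the 36.9% that rose among all gene-body islands and above the 27% among all regions. Beside the fall in UHRF1 there were rises in HDAC4, a histone deacetylase (0.82, adjusted p = 0.000323), and PRDM16 (0.81, adjusted p = 0.000961), whose call was lost without differentiated replicate 3. In 5mC 13 of 27 were higher and 6 lower, beside 68.8% and 10.1% of all 5mC members and 35.7% and 37.1% of all listed 5mC regions. Members in HDAC4 (0.40), PRDM15 (0.49) and EHMT1, a histone H3 methyltransferase (0.28), were higher. All 3 calls were lost without TMM, and EHMT1 turned to -0.01 with factors from the regions with most counts.

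Genes of the Wnt, Notch, hedgehog and TGF-beta pathways held 43 members, of which 14 rose in 5hmC and 1 fell, with a median of 0.26. That share lies between the 36.9% of all gene-body islands and the 27% of all regions that rose. WNT5A, a Wnt ligand, had 4.45, 8.06 and 5.76 CPM in differentiated libraries, against 3.91, 3.13 and 2.72 CPM in undifferentiated libraries (chr3:55507801-55509000, log2 fold change 0.81, adjusted p = 0.000125). With TMM scaling the lowest differentiated library was close to the highest undifferentiated one, without overlap. The states overlap when the TMM factors are taken out. HEY2, a target of Notch, and DVL3, which relays Wnt signals, had log2 fold changes of 0.75 and 0.69. In 5mC 5 of 7 were higher and 1 lower, near the 68.8% higher among all 5mC members and above the 35.7% of all listed 5mC regions. The Notch ligands went in opposite directions, with -0.59 in DLL3 (chr19:39996601-39997600, adjusted p = 0.00353) and 0.40 in DLL1 (chr6:170588201-170591400, adjusted p = 0.00456), and both calls were lost under DESeq2. That of DLL1 was also lost under both other scalings and without undifferentiated replicate 2.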

How the data were processed

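Per the submitters' processing notes, BWA, SAMtools 0.1.18, bedtools 2.17.0, SICER 1.1 and edgeR 2.11 were used on the build GRCh37 (hg19); their roles are not stated. The deposited tables hold unnormalized read counts per region and library. The deposited log2 fold changes and mean log2 CPM were not used as results. The authors' deposited 5mC table reaches a p-value of 0.0165 and an adjusted p-value of 0.0826 at most, values that imply 328588 tests for 65535 listed regions. Distances to genes, promoters and islands are given per the file headers, from an annotation that the sources used here do not name. Coordinates are hg19, counted from 1.

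Of 327949 deposited 5hmC regions, 18 without a count were left out. All regions of a mark were fitted in R 4.3.3 with edgeR 4.0.16 (filterByExpr, TMM, quasi-likelihood F test, n = 3 per state), and called at 0.05 after Benjamini-Hochberg adjustment. Adjustment was over all regions tested for 5hmC and over the implied tests for 5mC. The spread of 5mC was estimated from selected regions, so its p-values can be too small. CPM are on TMM-scaled totals. Regions were set against their gene, the region itself included, with edgeR's diffSpliceDGE. Alternatives were no TMM, TMM from the 10% of regions with most counts, DESeq2 1.42.0, no filter, a replicate block, each library left out, and promoter distances over 5000. The fits were tested on simulated data.

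Gene starts were placed for 19019 of 21759 genes, where at least 3 regions gave the same coordinate. The members and the 9 gene lists were chosen with earlier results of these data known. Regions were named by rule: for each mark the 8 largest rises and 8 largest falls among called members with no overlap, mean CPM at or above the members' median (2.42 and 16.7) and outside chromosome 8, 1 per gene; the 5 genes with most 5hmC members; up to 6 pairs per direction; 4 regions per direction against their gene; and up to 3 called members per list and mark by smallest adjusted p. Further values outside this rule were chosen after they were seen. Some regions that this rule names are not reported here.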

Additional observations from a re-analysis of the deposited data

How the results depend on the processing

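Scaling and the choice of test moved the counts. For 5hmC members 298 were higher and 160 lower without TMM, 178 and 213 with TMM from the regions with most counts, and 296 and 19 with DESeq2. For 5mC members the counts higher were 28, 15 and 68 under these settings, and DESeq2 called 5 lower. Members with at least 50% of their bases in an island, a subset chosen after seeing the data, gave 214 higher and 1 lower in 5hmC and 38 and 2 in 5mC. Leaving out each library gave 497 to 953 higher and 34 to 66 lower for 5hmC, 273 to 316 and 39 to 43 for 5mC, and 147 to 386 and 33 to 67 against the gene. With medians over regions the difference against promoter islands turned to -0.004 for 5hmC and -0.061 for 5mC, and to -0.007 for 5mC without the largest promoter island, a setting chosen after seeing the data. The 5mC difference against all other regions turned to 0.302 with medians, 0.018 without the top 1% of members and 0.173 in the subset at least 50% island. Over the named regions 1063 results kept direction and call, 138 lost the call and 4 turned: in 5mC, SPI1 without TMM (-0.013) and, with TMM from the regions with most counts, SPI1 (-0.05), DLGAP2 (-0.004) and EHMT1 (-0.012). In all, 61 named results kept their call in every setting and 50 did not. The causes were not tested.

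Deviations of same-numbered libraries from the mean of their state correlated at 0.000529, -0.0994 and -0.105 for 5hmC and 0.0113, 0.00557 and -0.0098 for 5mC. Differently numbered libraries were not set beside them, so these values do not settle whether replicate numbers pair the samples. With a replicate block 628 members were higher and 54 lower in 5hmC, 431 and 64 in 5mC, and 219 and 54 against the gene. Depth limits single regions, with a median of 28 counts per 5hmC member in the shallowest library.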
